A study of Mus musculus with 2 samples.

Results

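The genes described here make, break down and read out retinoic acid, the vitamin A derivative that patterns the embryonic head and eye. They are 10 of 21887 protein-coding mouse genes: 4 synthesis genes (Rdh10, Aldh1a1, Aldh1a2, Aldh1a3), 3 breakdown genes (Cyp26a1, Cyp26b1, Cyp26c1) and 3 receptor genes (Rara, Rarb, Rarg). The genes were chosen by name, with earlier results of these data known, and all 10 symbols were found in the RefSeq table of mouse build mm10. Every called peak whose summit lay in a gene body or within 10 kb of either end was assigned to that gene. The study's title concerns functions of the core histone variant H3.2 in the eye. Chromatin of snap-frozen heads of mouse embryos at E10.5 was immunoprecipitated with an antibody against green fluorescent protein and sequenced. The series holds 2 libraries with the same labels, called library 1 and library 2, each with its own peak list. The labels name no genotype, strain, treatment, sex or litter, do not say which protein carried the fluorescent tag, and do not say whether either library was a control, so there is 1 group, no contrast and no test between conditions.

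Retinol is oxidised to retinaldehyde, in the embryo chiefly by Rdh10, and retinaldehyde is oxidised to retinoic acid by the Aldh1a enzymes. The Cyp26 enzymes hydroxylate retinoic acid and clear it, which sets sharp borders between tissues that are exposed to it and tissues that are not. The nuclear receptors Rara, Rarb and Rarg, paired with an Rxr partner, bind DNA at repeated half-sites and switch transcription when retinoic acid is bound.

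The lists differed greatly in length: library 1 had 584724 peaks and library 2 had 348, of which 127 lay on chromosomes 1 to 19, X or Y. All values below are for library 1 unless library 2 is named. They are descriptions of 1 library. The intervals are exact 95% intervals that cover counting error only, and neighbouring peaks are not independent of each other. Fold enrichment, −log10 p and −log10 q are the authors' values, and the pileup (the number of extended reads over the summit) was recovered from them.

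Promoters are described first, because a peak lay over 4 of them. The promoter table used here (RefSeq, GRCm38.p6, the assembly of mm10) gave 13 promoters of 8 of the genes, each of 300 bases, and had no entry for Rdh10 or Aldh1a3. A library 1 peak overlapped a promoter of Cyp26a1, Cyp26b1, Cyp26c1 and Rarb, which are 4 of the 8 genes, and none of the listed promoters of Aldh1a1, Aldh1a2, Rara or Rarg. Over all 17492 genes with a promoter entry the share was 43.0%, so the count of 4 in 8 was near the background. The starts listed for Rara lie 9896 bp or more inside the gene, so its 5′ gene end had no promoter entry. A peak at chr11:98927666-98927784, with its summit 81 bp before that end, was therefore not counted. By role, the peak-bearing promoters belonged to all 3 breakdown genes, 1 of 3 receptor genes and 0 of 2 synthesis genes with an entry. This split depends on where the 300-base windows end. The Rarg windows begin at 102246451 and 102257473, just beyond peaks that end at 102246447 and 102257453. The Aldh1a2 window, 71215539 to 71215838, lies between a peak that ends at 71215492 and another that starts at 71215900. The 250 bases before the listed start of the 4 promoters with a peak are shown because they are the sequences that the peaks cover in whole or in part. Each is given 5′ to 3′ on the strand of the gene. Capitals mark a direct repeat of 2 receptor half-sites with 5 bases between them.
Cyp26a1, chr19:37697558-37697807, plus strand: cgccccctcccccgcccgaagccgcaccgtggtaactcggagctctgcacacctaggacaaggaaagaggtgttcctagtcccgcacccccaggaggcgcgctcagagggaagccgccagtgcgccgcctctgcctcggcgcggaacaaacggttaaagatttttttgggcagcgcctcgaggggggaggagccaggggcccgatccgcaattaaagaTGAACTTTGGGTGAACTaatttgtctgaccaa
Rarb, chr14:16575477-16575726, minus strand: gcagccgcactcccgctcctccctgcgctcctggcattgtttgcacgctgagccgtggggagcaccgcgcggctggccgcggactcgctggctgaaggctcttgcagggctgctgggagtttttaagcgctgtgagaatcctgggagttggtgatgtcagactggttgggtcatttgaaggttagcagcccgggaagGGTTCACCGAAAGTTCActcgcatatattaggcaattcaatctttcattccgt
Cyp26b1, chr6:84593811-84594060, minus strand: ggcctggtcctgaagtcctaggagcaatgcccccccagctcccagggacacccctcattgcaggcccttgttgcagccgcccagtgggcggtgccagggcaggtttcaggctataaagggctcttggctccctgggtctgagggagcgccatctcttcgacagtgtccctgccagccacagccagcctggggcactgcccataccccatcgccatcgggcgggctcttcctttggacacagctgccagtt
Cyp26c1, chr19:37685430-37685679, plus strand: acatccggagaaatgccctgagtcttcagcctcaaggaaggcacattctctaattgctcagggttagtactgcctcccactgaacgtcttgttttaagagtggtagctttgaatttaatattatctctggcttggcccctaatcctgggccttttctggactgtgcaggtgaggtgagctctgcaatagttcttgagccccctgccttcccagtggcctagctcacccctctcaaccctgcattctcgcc

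Rarb and Cyp26a1 are textbook targets of retinoic acid receptors, through repeats of this kind near their starts. The search took any pair of 6-base half-sites, AGGTCA (the consensus), AGTTCA (found in both genes), GGTTCA (found in Rarb) or GGGTCA, on either strand of the 300 bases, in the same orientation, with 1, 2 or 5 bases between them. These letters were chosen with the published elements of such genes in mind. Matches at Rarb and Cyp26a1 were thus favoured in advance, and the share over all genes is no test of them. A repeat with a spacing of 5 was found in promoters of 2 of the 8 genes, Rarb and Cyp26a1, against 16 of 17492 genes (0.0915%) with any promoter holding one. No listed promoter of these genes held a repeat with a spacing of 1 or 2, which were found in 0.217% and 0.103% of all genes.

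Both repeats lay inside a called peak. In Rarb the repeat spanned chr14:16575513-16575529, 53 to 37 bases before the listed start, and the peak ran from 16575508 to 16575711. That peak had a fold of 3.44, a −log10 q of 3.69 and a pileup of 14 reads (7.65 to 23.5), and its summit was 80 bp from the middle of the repeat. The repeat was thus close to the lower end of the peak. In Cyp26a1 the repeat lay on the opposite strand at chr19:37697776-37697792, 32 to 16 bases before the start, within a peak from 37697683 to 37698550. This peak was 868 bp wide, with a fold of 3.77, a −log10 q of 3.95 and a pileup of 13 reads (6.92 to 22.2). Its summit lay 340 bp after the listed start and 364 bp from the repeat, so the repeat was in the outer part of the peak. Of the 17 promoters in the table with such a repeat, 7 (41.2%) overlapped a peak, against 40.5% of all 21263 promoters. The 2 shares were close, but 17 promoters are too few to show a moderate difference. The 7 include the promoters of Rarb and Cyp26a1.

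The other breakdown promoters held no repeat. Their peaks had higher folds than those at Rarb and Cyp26a1, but the pileup intervals overlapped. The Cyp26c1 peak, at chr19:37685604-37685876, had a fold of 5.12, a −log10 q of 7.08 and a pileup of 18 reads (10.7 to 28.4), with the summit 91 bp after the listed start. The Cyp26b1 peak, at chr6:84593745-84594068, had a fold of 4.31, a −log10 q of 5.15 and a pileup of 15 reads (8.40 to 24.7), with the summit 30 bp before the start. These 2 were the promoter peaks that remained at a −log10 q of at least 5, where the share over all genes was 14.7%. When the summit itself had to lie in the 300 bases, only Cyp26b1 and Rarb were counted, against 24.0% of all genes.

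The share of promoters with a peak varied with base composition. With all promoters split by GC content into 10 bins of about equal size, 3.40% held a peak in the bin with the lowest GC content (up to 40.7%), 58.6% in the bin from 53.7% to 56.3% and 41.6% in the bin with the highest (from 71.7%). Aldh1a1, whose promoters had 43.3% and 47.0% GC, fell in bins where 13.7% and 25.8% of promoters had a peak. Aldh1a2 had a promoter of 78.0% GC with 50 CpG dinucleotides, more GC-rich than 97.5% of promoters. The 4 promoters with a peak had GC contents of 53.3% (Cyp26c1), 57.7% (Rarb), 62.3% (Cyp26a1) and 62.3% (Cyp26b1), near the median of 56.3%. Promoters without a peak lay in the same range, with 58.3% and 59.3% at Rara, in the bin of the Rarb promoter, where 57.3% of promoters had a peak. At Rarg the promoter of 51.7% GC had none and shared its bin with that of Cyp26c1, where 47.2% had one. The other promoters without a peak had 66.3% and 68.3% (Rara) and 70.0% (Rarg). The part of base composition in the presence or absence of these peaks was not tested.

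**Figure D1:**
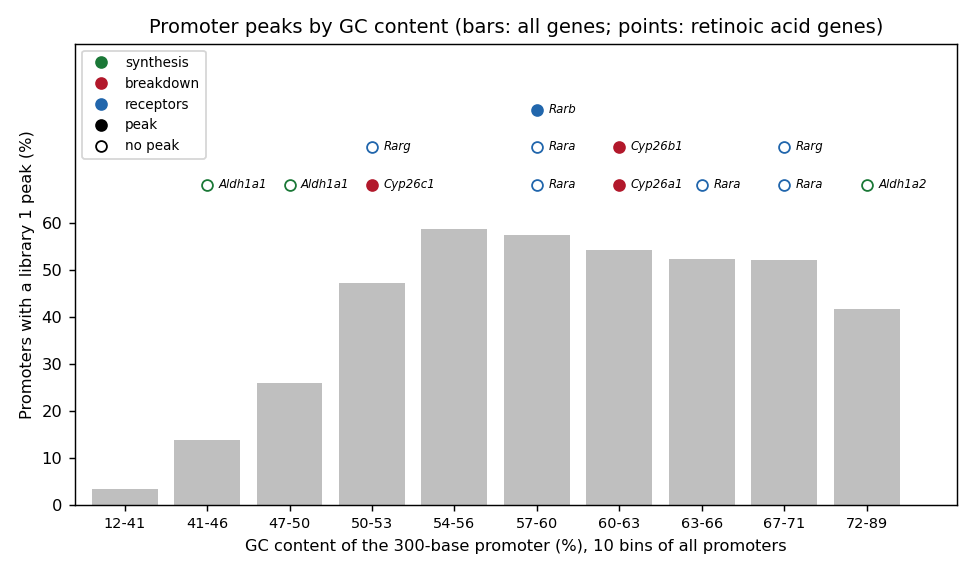
Share of promoters with a library 1 peak (y axis, %) in 10 bins of all 21263 promoters by GC content (x axis, %), as bars. Points above the bars place the 13 promoters of the retinoic acid genes in their bin, with no value on the y axis; filled points have a peak, and all 4 of these lie between 53.3% and 62.3% GC.

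Peaks near starts were common even where the promoter itself had none. A summit lay within 1 kb of a listed start in 7 of 8 genes, against 67.6% of all genes with an entry. In Aldh1a2 the nearest summit was 187 bp inside the gene (fold 3.50). Rarg had summits 158 bp inside its upstream start (fold 3.77) and 148 bp inside its downstream start (fold 3.23). Of the 4 starts listed for Rara, the one at 98939711 had a summit 323 bp downstream (fold 4.22), and the others had the nearest summit about 1 kb away, at 0.998 to 1.07 kb. Aldh1a1 was the exception, with the nearest summit 4.82 kb before its upstream start and 5.76 kb from its downstream start.

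All 10 genes had library 1 peaks in their windows, as did 94.8% of all protein-coding genes, so presence alone sets none of them apart. The windows held 315 distinct peaks over 1235 kb, or 2.55 per 10 kb (2.28 to 2.85). The neighbours Cyp26c1 and Cyp26a1, which lie 4.42 kb apart on chromosome 19, shared 10 of these peaks. The median density of the 10 genes was 5.55 summits per 10 kb, against a median of 3.26 (quartiles 1.34 and 5.90) over all protein-coding genes, and 7 of the 10 were above that median, where 50.0% of all genes lie. The pooled value is lower than the median of the genes because the sparse windows of Rarb (671 kb) and Aldh1a1 (171 kb) make up most of the length. At the edge of the windows, 4 summits lay in the last 1 kb inside and 9 in the first 1 kb outside.

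By role, pooled density was highest at the breakdown genes. They held 51 peaks over 78.9 kb, or 6.46 per 10 kb (4.81 to 8.50). The synthesis genes held 97 peaks over 375 kb, or 2.59 per 10 kb (2.10 to 3.16), and the receptor genes 167 peaks over 781 kb, or 2.14 per 10 kb (1.83 to 2.49). The low place of the receptors rested on Rarb, without which the receptor density was 7.29 per 10 kb, above that of the breakdown genes. Without Aldh1a1 the synthesis density was 3.98, still below it. These 2 omissions were chosen after the values were seen. Among genes of at least 10 kb, peaks per length fell with gene length: the median was 3.90 per 10 kb in genes of 10 to 50 kb, 2.90 in genes of 50 to 200 kb and 1.63 in genes over 200 kb. Shorter genes, among them Cyp26a1 and Cyp26c1, did not continue this trend, with a median of 2.91.

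**Figure D2:**
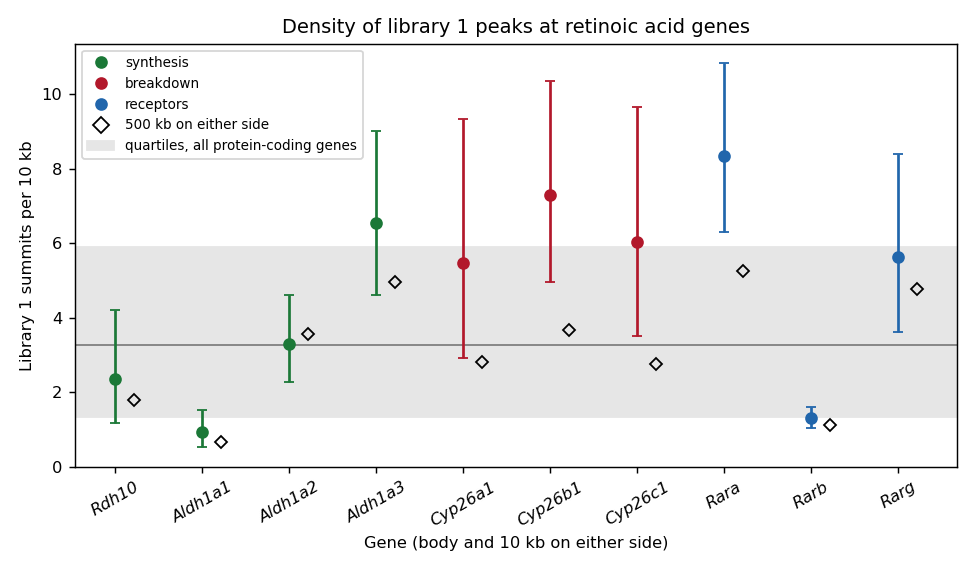
Library 1 summits per 10 kb of window (y axis) for each gene (x axis), with exact 95% Poisson intervals; open diamonds give the density in the 500 kb on either side, the grey band the quartiles and the line the median over all protein-coding genes. Rara is highest at 8.34 and Aldh1a1 lowest at 0.936, and the 3 breakdown genes lie between 5.46 and 7.29, each above its diamond.

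In order of density the genes ran from Rara (8.34 summits per 10 kb) through Cyp26b1 (7.29), Aldh1a3 (6.54), Cyp26c1 (6.03), Rarg (5.64), Cyp26a1 (5.46), Aldh1a2 (3.29), Rdh10 (2.36) and Rarb (1.30) to Aldh1a1 (0.936). The intervals of every pair of neighbours in this order overlapped. Rara (6.30 to 10.8) and Cyp26b1 (4.96 to 10.4) lay wholly above the intervals of Aldh1a2, Rdh10, Rarb and Aldh1a1, whose highest bound was 4.61.

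Peak density also varies along chromosomes, so each gene was set beside the 500 kb on either side of its window. Density in the window was higher than in these surroundings in 9 of the 10 genes, Aldh1a2 being the exception, against 52.7% of all protein-coding genes. The interval of the ratio lay above 1 in 4 genes, against 15.6% of all genes. These were Cyp26c1 (2.18, interval 1.25 to 3.56), Cyp26b1 (1.99, 1.33 to 2.88), Cyp26a1 (1.94, 1.02 to 3.37) and Rara (1.59, 1.18 to 2.10). All 3 breakdown genes were thus among the 4, but Cyp26a1 and Cyp26c1 are not independent, since the 10 shared peaks are 10 of the 13 of Cyp26a1 and 10 of the 17 of Cyp26c1. No gene had an interval below 1.

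Among the synthesis genes, Aldh1a3 was dense in peaks and Aldh1a1 sparse. Rdh10, the retinol dehydrogenase, had 11 peaks in library 1 (5.49 to 19.7) at chr1:16105882-16132550. Its folds ranged from 2.98 to 5.28 with a median of 3.50, and 1 peak reached a −log10 q of 5. That peak, from 16114871 to 16115056 within the gene, had a pileup of 22 reads (13.8 to 33.3). A second peak lay 381 bp inside the lower gene end (fold 4.04).

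Aldh1a1, the retinaldehyde dehydrogenase of the dorsal retina, had 16 peaks (9.15 to 26.0) over the 151 kb gene at chr19:20492583-20643463. Its upstream start lay in a stretch of 33.3 kb without a summit, from 4.82 kb before the start to 28.5 kb inside the gene. The region around it was also sparse, with 0.66 summits per 10 kb in the 500 kb on either side, and 17.9% of all protein-coding genes had a lower density than Aldh1a1. Of its peaks, 7 of 16 reached a −log10 q of 5, and the median fold was 3.98. The strongest, at chr19:20583693-20583912, lay in the gene 18.2 kb before the downstream start, with 6.19-fold enrichment on 22 reads (13.8 to 33.3).

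Aldh1a2, the main enzyme of retinoic acid synthesis in the trunk and early embryo, had 33 peaks (22.7 to 46.3) at chr9:71215789-71296243. The density of 3.29 per 10 kb was close to the all-gene median and to the 3.56 of its surroundings. Of its peaks, 15 of 33 (45.5%) reached a −log10 q of 5, the largest share among the 10 genes, and the median fold was 4.04. The strongest, at chr9:71283187-71283455, lay 67.5 kb inside the gene, with 7.002-fold enrichment on 25 reads (16.2 to 36.9). A peak with a fold of 6.46 had its summit 718 bp inside the start. A stretch of 13.0 kb without a summit followed, from 4.80 to 17.8 kb inside the gene.

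Aldh1a3, the synthesis enzyme of the ventral retina and of the nasal region, had 37 peaks (26.1 to 51.0) at chr7:66390892-66427477. Its density of 6.54 per 10 kb exceeded that of 79.8% of genes, and 28 of the peaks lay in the body. The strongest peak, at chr7:66407887-66408201 in the middle of the gene, had the same fold as that of Aldh1a2, 7.002, and the same pileup of 25 reads. The highest summits after it had folds of 6.19 and 5.92. A weak peak (fold 2.96, −log10 q 2.31) lay 56 bp inside the higher gene end. Of its summits, 4 lay in the body of another protein-coding gene, Lrrk1.

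Among the breakdown genes, Cyp26b1, expressed in the hindbrain and in limb and facial mesenchyme, had the most peaks. It had 31 (21.1 to 44.0) at chr6:84571414-84593908, of which 19 lay in the body, 10 in the downstream flank and 2 upstream. Peaks covered 21.8% of its window. The strongest lay 655 bp beyond the downstream end, at chr6:84570666-84571289, with 5.66-fold enrichment on 20 reads (12.2 to 30.9). Its promoter peak ranked 11th by fold.

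Cyp26c1 and Cyp26a1, which share a role in clearing retinoic acid from the anterior head and hindbrain, lie in tandem. Cyp26c1, at chr19:37685112-37693320, had 17 peaks (9.90 to 27.2), with 7 in its body, and its strongest was the promoter peak. The bodies of the neighbours Exoc6 and Cyp26a1 held 5 of these summits. Cyp26a1, at chr19:37697738-37701536, had 13 (6.92 to 22.2), with 2 in its short body, 7 upstream and 4 downstream. Of the 7 upstream summits, 4 lay in the body of Cyp26c1. The strongest peak of Cyp26a1 lay 5.12 kb beyond the gene, at chr19:37706542-37707103, with 5.39-fold enrichment on 19 reads (11.4 to 29.7). The promoter peak ranked 7th of the 13. Of its peaks 3 reached a −log10 q of 5, and of those of Cyp26c1, 6 did.

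Among the receptors, Rara, which is expressed in nearly all embryonic tissues, had the highest density of the 10 genes. It had 56 peaks (42.3 to 72.7) at chr11:98927800-98974942, spread over body (38), upstream flank (8) and downstream flank (10), with a median distance of 0.812 kb between summits. Its density exceeded that of 91.8% of genes, but its median fold, 3.43, was the lowest of the 10 genes, and 12 of 56 (21.4%) reached a −log10 q of 5. The strongest, at chr11:98973321-98974020, lay 1.17 kb before the downstream end with 6.46-fold enrichment on 23 reads (14.6 to 34.5). Of its summits, 9 lay in bodies of the neighbouring protein-coding genes in the window (Cdc6, Gm46294 and Gjd3).

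Rarb, the receptor gene that retinoic acid itself induces, spans 651 kb at chr14:16430839-17082331, and 87 peaks (69.7 to 107) lay in it, all within the body. It was sparse in peaks (1.30 per 10 kb) in a sparse region (1.13), but held the strongest peak of all the genes. This peak, at chr14:16652858-16653145, had a fold of 8.43, above 99.95% of the list, and a pileup of 31 reads (21.1 to 44.0). It lay inside the long gene, 77.6 kb upstream of the start whose promoter holds the repeat. A further 3 peaks had a fold of 6.73, and 15 peaks belonged to the 10% of the list with the highest fold. A gene with more peaks has more chances of a high maximum, and the median fold of Rarb, 3.77, was below the 3.85 of all gene windows.

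Along Rarb the peaks were uneven. In steps of 50 kb from the 5′ gene end, the count over the full steps was lowest at 2 (0.4 per 10 kb, 0.0484 to 1.44) between 300 and 350 kb and highest at 13 (2.6 per 10 kb, 1.38 to 4.45) between 100 and 150 kb. The second highest count, 11 (2.2 per 10 kb, 1.10 to 3.94), was in the step from 500 to 550 kb that contains the 1 start listed for Rarb, 507 kb from the 5′ end. The longest stretch without a summit was 34.9 kb, from 179 to 214 kb. The intervals of the lowest and the highest count overlapped.

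Rarg, the receptor of mesenchyme and cartilage precursors, had 24 peaks (15.4 to 35.7) at chr15:102234938-102257522, with 16 in the body. The body of the neighbouring gene Itgb7 held 4 of these summits. The density of 5.64 per 10 kb was 1.18 times that of the surroundings, with an interval of 0.748 to 1.78 that includes 1. The strongest peak, at chr15:102252040-102252232, lay 5.39 kb inside the gene, with 5.66-fold enrichment on 20 reads (12.2 to 30.9), and 6 peaks reached a −log10 q of 5.

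**Figure D3:**
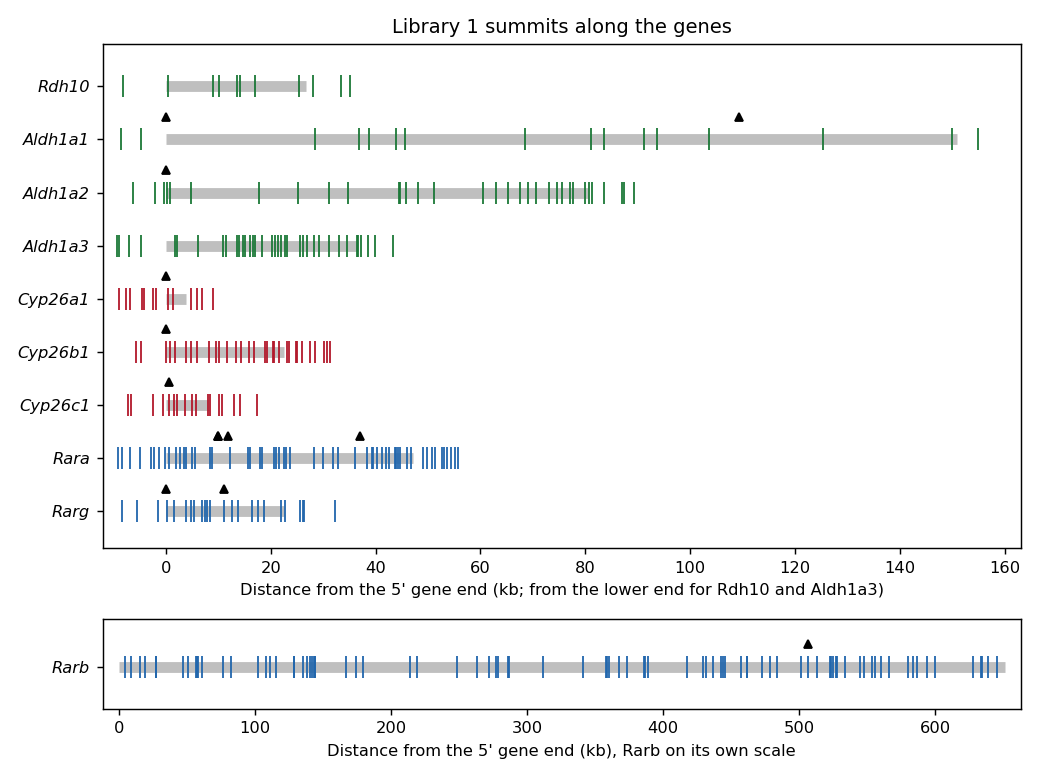
Summits of library 1 peaks (coloured ticks; green synthesis, red breakdown, blue receptors) along each gene (grey bar) and 10 kb on either side, as distance in kb from the 5′ gene end on the x axis, or from the lower end for Rdh10 and Aldh1a3, which have no strand here. Black triangles are listed starts; the first start of Aldh1a1 stands in a stretch of 33.3 kb without ticks, and Rarb has its own scale.

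By strength, the peaks of the synthesis and breakdown genes lay near the middle of the list, and those of the receptor genes lower. The median fold was 4.04 at synthesis, 3.85 at breakdown and 3.50 at receptor genes, against 3.85 over the windows of all protein-coding genes. In the whole list, 29.3% of peaks had a fold below 3.50. Of all distinct peaks, 108 of 315 (34.3%, 29.1 to 39.8) reached a −log10 q of 5, against 40.2% in the windows of all genes. The shares were 39.2% at synthesis (29.4 to 49.6), 39.2% at breakdown (25.8 to 53.9) and 29.9% at receptor genes (23.1 to 37.5). The intervals of the 315 peaks and of the receptor genes among them lay below 40.2%. Within the receptors the share was 21.4% at Rara, 25% at Rarg and 36.8% at Rarb, with median folds of 3.43, 3.50 and 3.77. The low receptor values thus came more from Rara and Rarg than from Rarb. All 10 genes had at least 1 peak with a −log10 q of 5 or more, as did 88.2% of all genes. A peak among the 10% with the highest fold (5.39 or more) was found in 8 of 10 genes, all but Rdh10 and Cyp26c1, against 67.2% of all genes. Such peaks made up 13.4% at synthesis, 5.88% at breakdown and 11.4% at receptor genes, against 10.1% in the windows of all genes. Summit pileups ranged from 8 to 31 reads with a median of 14, so a single peak rests on few reads. Peaks at the breakdown genes were wider, with a median of 286 bp, against 205 bp at synthesis and 200 bp at receptor genes and 205 bp over all gene windows.

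**Figure D4:**
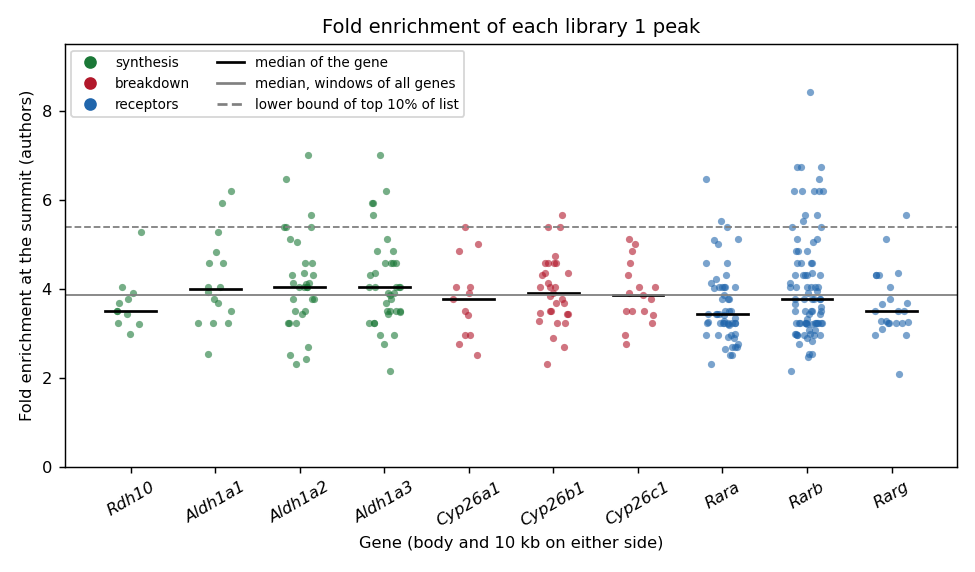
Fold enrichment given by the authors (y axis) of every library 1 peak in the window of each gene (x axis); black bars are the medians per gene, the grey line the median in the windows of all genes (3.85) and the dashed line the lower bound of the 10% of the list with the highest fold (5.39). The highest point is the Rarb peak at 8.43, and the medians lie between 3.43 and 4.04; horizontal scatter has no meaning.

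Library 2 had no peak in the window of any of the 10 genes, and 0.192% of all protein-coding genes had one. With 0 of its 127 peaks on chromosomes, a share of up to about 2.36% is allowed. This limit is 3 of 127, an approximation and not an exact interval. The windows make up 0.0959% of the length of all gene windows, so a list of this length could not show a difference between these genes and others. The nearest library 2 peak lay 1.02 Mb from Rarg, 2.33 Mb from Rarb, 2.71 Mb from Aldh1a1 and 4.11 Mb from Cyp26b1. For the other genes the distance ranged from 8.55 Mb (Rdh10) to 44.8 Mb (Rara).

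Other genes of the pathway were described from a list of 25, covering retinol transport and storage, binding proteins, other dehydrogenases, Rxr partners and receptor co-regulators. All 25 had a library 1 peak, against 94.8% of all genes, and 16 had a density above the all-gene median, against 50.0%. The median density of the list was 3.88 per 10 kb. None had a library 2 peak, against 0.192% of all genes with one. The highest densities were those of Rxra, the main partner of the receptors (117 peaks, 10.9 per 10 kb, 9.05 to 13.1), the nuclear receptor gene Ppard (97 peaks, 10.9 per 10 kb, 8.87 to 13.3), and the transglutaminase gene Tgm2, a classical retinoic acid target (51 peaks, 10.2 per 10 kb, 7.60 to 13.4). The densities exceeded those of 99.4% (Rxra), 99.4% (Ppard) and 98.5% (Tgm2) of all genes, and all had a higher density than Rara, with overlapping intervals. The lowest were Ncor1, a co-repressor of unliganded receptors (29 peaks, 1.79 per 10 kb, 1.20 to 2.57), the fatty acid binding protein gene Fabp5 (4 peaks, 1.66 per 10 kb, 0.454 to 4.26) and Pparg, the adipocyte regulator (17 peaks, 1.14 per 10 kb, 0.662 to 1.82).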

How the data were processed

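The deposited data were 2 narrowPeak lists, 1 per library. Per the submitters' processing notes, the tools included MACS2 2.1.0, Bowtie 1.1.2, Trimmomatic 0.33 and bcl2fastq 2.17, with no settings, and the builds hg38 and mm10. Coordinates were read as mm10, the mouse build of the pair. The deposited lists give a score, the fold enrichment as a ratio, −log10 p and −log10 q as the authors' caller computed them, and the summit offset. Whether a control library was used is not given in the sources used here. Pileups were recovered from fold and −log10 p (100% whole within 0.002 on the −log10 scale). Gene positions and promoters came from RefSeq tables of GRCm38.p6. Summits were counted in gene bodies and 10 kb on either side, for 21887 protein-coding genes. Strand came from the promoter table, which lacked Rdh10 and Aldh1a3. Planned protein comparisons were not run, as no protein sequence was used here. Intervals are 95% exact (Poisson, Clopper-Pearson, or conditional binomial for ratios). The counting and motif steps were tested on simulated data. Python 3.11.15, scipy 1.17.1 and pandas 2.3.3 were used. A gene of the pathway list as planned is not reported here. The members and lists were chosen with earlier results of these data known. All 10 genes are named; of the pathway list, the 3 highest and 3 lowest in density; of the peaks, the strongest and the one nearest a start of each gene, and further peaks after their values were seen.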

Additional observations from a re-analysis of the deposited data

How the results depend on the processing

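Pooled densities of the 3 roles stayed within their counting intervals with the gene body alone, with 5 or 20 kb on either side, and with overlap of at least 1 bp in place of the summit, and the breakdown genes had the highest of the 3 in each of these settings. With −log10 q of at least 5 the densities were 1.01 (synthesis), 2.53 (breakdown) and 0.640 (receptors) per 10 kb. With the 10% of peaks of highest fold they were 0.347, 0.380 and 0.243, fewer peaks by construction. These values rest on 13, 3 and 19 peaks, so the order of the roles at this setting is uncertain. Chosen after seeing the data, leaving out Aldh1a1 gave 3.98 at synthesis and leaving out Rarb gave 7.29 at receptors, above the 6.46 at breakdown. The median of the genes, also chosen after seeing the data, gave 2.82 at synthesis, 6.03 at breakdown and 5.64 at receptors, so breakdown stayed highest and receptors moved above synthesis. Genes with a peak over a promoter numbered 2, not 4, with the summit inside the promoter and 2 with −log10 q of at least 5. The 10 genes with a peak in either library became 0 to 10 when 1 library was left out, library 1 carrying all peaks. Within 100 kb of the genes library 2 still had a peak at 0 of them. No paired analysis was possible because the libraries form 1 group. Pileups of 8 to 31 reads limit each peak's precision.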

Other observations

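Set against the 500 kb on either side, the 25 further pathway genes ranged widely, and 16 were denser than their surroundings, against 52.7% of all genes. These examples were chosen after their values were seen. Nrip1, a co-regulator of nuclear receptors, had 2.82 summits per 10 kb where its surroundings had 1.03, a ratio of 2.74. Rbp4, the retinol carrier of blood, had a ratio of 2.24 and lies on chromosome 19 like Cyp26a1 and Cyp26c1. Pparg had 1.14 summits per 10 kb where its surroundings had 5.27, a ratio of 0.216, and the co-activator gene Ncoa1 had 1.84 against 4.64, a ratio of 0.397. The related Ncoa2, of similar length (235 kb, against 230 kb for Ncoa1), had 4.47 against 2.48, a ratio of 1.80.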
